A study of Mus musculus with 4 samples.

Results

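Chemokines are small secreted proteins that attract leukocytes, and each is read by G protein-coupled receptors on the cells that follow it. In the small intestine, chemokines made by the epithelium bring T cells and antibody-secreting cells into the mucosa, while those of stromal cells arrange lymphoid tissue and those of activated leukocytes rise in inflammation. Atypical receptors bind chemokines without G protein signalling and remove or carry them. The genes described here were all those whose symbol, matched through the accession on the array, begins with Ccl, Cxcl, Ccr, Cxcr, Xcl, Xcr, Cx3cl, Cx3cr or Ackr followed by a number. The RefSeq table holds 67 such symbols, of which 57 had a probe on the array, among 21149 genes with a matched probe. The other 10, among them Ccl21a, Ccl27b and Cxcl11, were not analysed here.

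RNA came from small intestine of knockout mice (KO), labelled Cyp3a-/- and lacking the Cyp3a cluster of drug-oxidising cytochrome P450 genes, and of wild-type mice (WT). Each genotype had 2 arrays, from experiments on different animals, and the arrays are called KO 1, KO 2, WT 1 and WT 2 after the numbers in the labels. No treatment is given in the labels of either genotype. Strain, age, sex, gut segment, the way the deletion was made and the number of animals behind an array are not given in the sources used here. The p-values therefore weigh the difference between genotypes against the spread between arrays within a genotype, over these 4 arrays.

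Every array carried 39429 probes, of which 55.1% to 60.2% on the KO arrays and 57.0% to 64.3% on the WT arrays were well above background, and no spot was saturated. The 75th percentile of signal was 322 in KO 1 and 175 in KO 2, against 226 in WT 1 and 356 in WT 2. KO 1 and WT 2 shared a slide and a scan, whereas KO 2 and WT 1 each had a slide of their own. Over all genes tested, the KO arrays correlated at 0.948 with each other, the WT arrays at 0.979, and a KO with a WT array at 0.962 to 0.981. Cyp3a11, a P450 gene of the deleted cluster, had levels of -5.77 and -4.52 in KO 1 and KO 2, not well above background, against 5.05 and 5.78 in WT 1 and WT 2 (limma's adjusted p = 0.00235). All 18 genes of an enterocyte marker list passed the filter on dim probes. This does not establish the tissue, since all 8 smooth muscle and 6 of 8 liver markers passed it too. Relative to the WT mean, the liver list had a median of -1.87 and -0.22 in KO, against 1.74 and -1.74 in WT. A level is the log2 signal of a gene's brightest probe relative to the 75th percentile of its own array, so levels are compared between arrays and not between genes. A difference is the log2 level in KO minus that in WT, its standard error (SE) is the one limma estimated, and p-values were adjusted over 14393 genes.

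No chemokine or receptor gene passed the test between genotypes. Over the whole array, 14393 of 21149 genes with a matched probe were tested. Of the 57, 36 were well above background on at least 2 arrays and were tested, with limma's adjusted p = 1.00 for each. Limma thus called 0 of 36, where 0.0417% of all genes tested passed, and 0 had an unadjusted p under 0.05, where 0.445% of all genes did. The smallest unadjusted p was 0.118 in limma, for Cxcl12. The difference was positive for 18 genes and negative for 18, with a range of -0.70 to 0.30 and a median of 0.00, beside a median of 0.04 over all genes tested. The 95% interval of the difference included 0 for all 36 genes. It stayed within a 2-fold difference in either direction for 3 of them, Ccl9, Ccl27a and Cxcr6, which are named after their values were seen. For the other genes a 2-fold difference in at least 1 direction lay inside the interval. The KO and WT arrays overlapped for 32 of the 36 genes. Both KO arrays lay below both WT arrays for 4, Cxcl12, Cx3cr1, Cxcr4 and Ackr1, which is 11.1% of the tested chemokine and receptor genes beside 6.1% of all genes. Both KO arrays lay above both WT arrays for 0 of them, beside 8.66% of all genes.

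**Figure D1:**
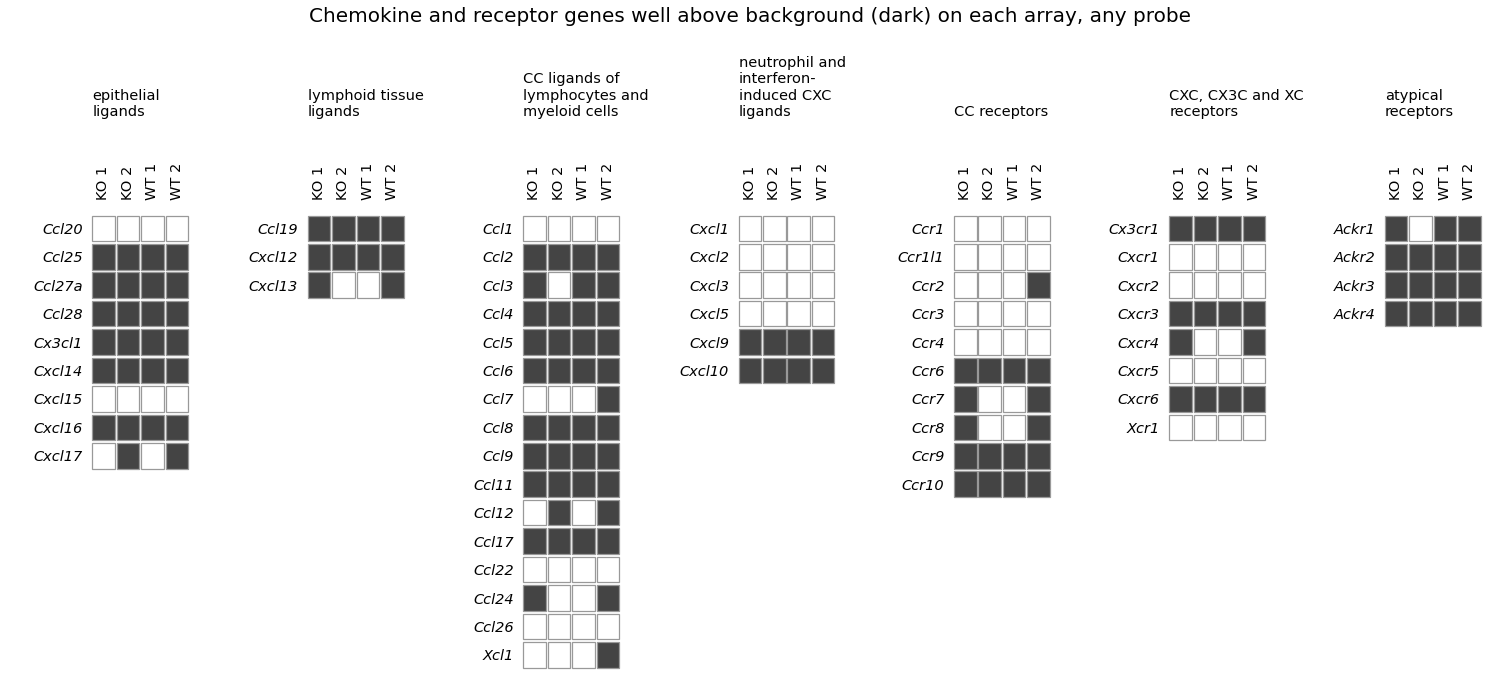
Each square is 1 of the genes named in the text or tested, on 1 array (KO 1, KO 2, WT 1, WT 2 from left to right in each panel), dark where any probe of the gene was well above background. The panels are the groups of ligands and receptors described in the text. KO 1 and WT 2 held 34 and 39 dark squares, KO 2 and WT 1 29 each.

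The number of these genes with a clear signal differed between the arrays of each genotype. On any of its probes, a chemokine or receptor gene was well above background in 34 cases in KO 1 and 29 in KO 2, against 29 in WT 1 and 39 in WT 2. The share of all probes varied too, at 60.2% in KO 1 and 55.1% in KO 2, against 57.0% in WT 1 and 64.3% in WT 2. The 2 high counts belong to the arrays of the shared slide, which also had the higher 75th percentiles of signal. Whether slide or signal strength set these counts was not tested. Among tested genes, 27 were well above background on all 4 arrays. Ackr1 and Ccl3 missed the mark in KO 2 alone. Ccl24, Ccr7, Ccr8, Cxcl13 and Cxcr4 reached it in KO 1 and WT 2 alone, and Ccl12 and Cxcl17 in KO 2 and WT 2 alone. No gene was well above background on both arrays of 1 genotype and on neither of the other (0 of 36). The share of all genes for this count is not given here, so it does not set the 36 genes apart.

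Not tested were 21 genes, of which 18 were well above background on no array. This set took in the neutrophil-attracting ligands Cxcl1, Cxcl2, Cxcl3 and Cxcl5, whose production marks acute inflammation, and their receptors Cxcr1 and Cxcr2. It also held the T cell and eosinophil attractants Ccl1, Ccl22 and Ccl26, the lung ligand Cxcl15, and receptors such as Ccr1, Ccr1l1, Ccr3, Ccr4 and Xcr1. Ccl20, which epithelium over lymphoid follicles makes for Ccr6-bearing cells, and Cxcr5, which guides B cells to follicles, belonged to it too. The measured Ccl20 levels were -7.06 and -6.28 in KO, against -6.56 and -7.40 in WT, and those of Cxcr5 were -5.27 and -5.64 in KO, against -5.34 and -5.76 in WT. These are readings below the limit for a clear signal and give no fold. The remaining 3, the monocyte attractant Ccl7, its receptor Ccr2 and the dendritic cell attractant Xcl1, were well above background in WT 2 alone.

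Of the epithelial ligands, 7 of 9 on the array were tested, 0 passed, 4 had a positive difference, and the median difference was 0.19. Ccl25, the small-intestinal epithelial ligand that draws Ccr9-bearing T cells and plasma cells, had levels of 7.01 in KO 1 and 6.81 in KO 2, against 7.08 in WT 1 and 6.18 in WT 2. The KO arrays lay between the WT arrays. Its difference was 0.28 (SE 0.42, 95% interval -0.76 to 1.31), and 0.83 within the shared slide. A second Ccl25 probe, with a difference of 0.11, also overlapped between genotypes. Because Ccl25 is the epithelial signal of this organ, the sequence before a RefSeq start of the gene is shown (GRCm38.p6, chr8:4349338-4349587, plus strand, 250 bases upstream of the start). The capitals mark its 1 match to TTTATG, read on either strand and known from sites of the intestinal CDX factors. RefSeq lists another start for Ccl25, whose window had 0 such matches.
Ccl25: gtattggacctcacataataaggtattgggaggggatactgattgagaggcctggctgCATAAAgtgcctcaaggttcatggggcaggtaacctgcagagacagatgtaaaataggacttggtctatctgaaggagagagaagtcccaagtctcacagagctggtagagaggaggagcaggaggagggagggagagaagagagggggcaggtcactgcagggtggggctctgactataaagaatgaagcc

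Across the RefSeq table, 10.8% of 32851 windows of this length held TTTATG on either strand, and 8 of the 43 chemokine and receptor genes with a window did. Such a match is a description of the letters only. Cx3cl1, the membrane-anchored ligand of Cx3cr1 on mucosal macrophages, had levels of 3.59 in KO 1 and 2.59 in KO 2, against 2.98 in WT 1 and 2.75 in WT 2. KO 1 was the highest array and KO 2 the lowest, so the WT arrays lay inside the KO range. Its difference was 0.22 (SE 0.39), and 0.84 within the shared slide. Cxcl16, the other membrane-anchored ligand, which binds Cxcr6, followed the same order of arrays. Its levels were -0.21 in KO 1 and -1.14 in KO 2, against -0.47 in WT 1 and -0.69 in WT 2 (difference -0.09, SE 0.39, within the slide 0.48).

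Ccl28, a mucosal ligand that draws IgA-secreting cells through Ccr10, had levels of -0.57 and -1.40 in KO, against -0.64 and -1.71 in WT. In each genotype 1 array was about as high as the other genotype's high array, and the difference of 0.19 (SE 0.48) was small beside the gap between arrays of a genotype. Within the slide it was 1.14. Cxcl14, which epithelia make without stimulation, had levels of 0.89 and 0.36 in KO, against 1.35 and 0.87 in WT. KO 1 was just above WT 2, so the genotypes overlapped. The difference was -0.48 (SE 0.33, unadjusted p = 0.187 in limma) and shrank to 0.02 within the slide. Cxcl17, a ligand of mucosal surfaces, had the widest gap of all 36 genes within a genotype, at -5.69 in KO 1 and -3.00 in KO 2, against -5.37 in WT 1 and -3.70 in WT 2. Its low readings were not well above background in KO 1 and WT 1, and its SE of 1.01 was the largest of the 36. Ccl27a, best known as a skin ligand of Ccr10, had a difference of -0.16 (SE 0.32).

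**Figure D2:**
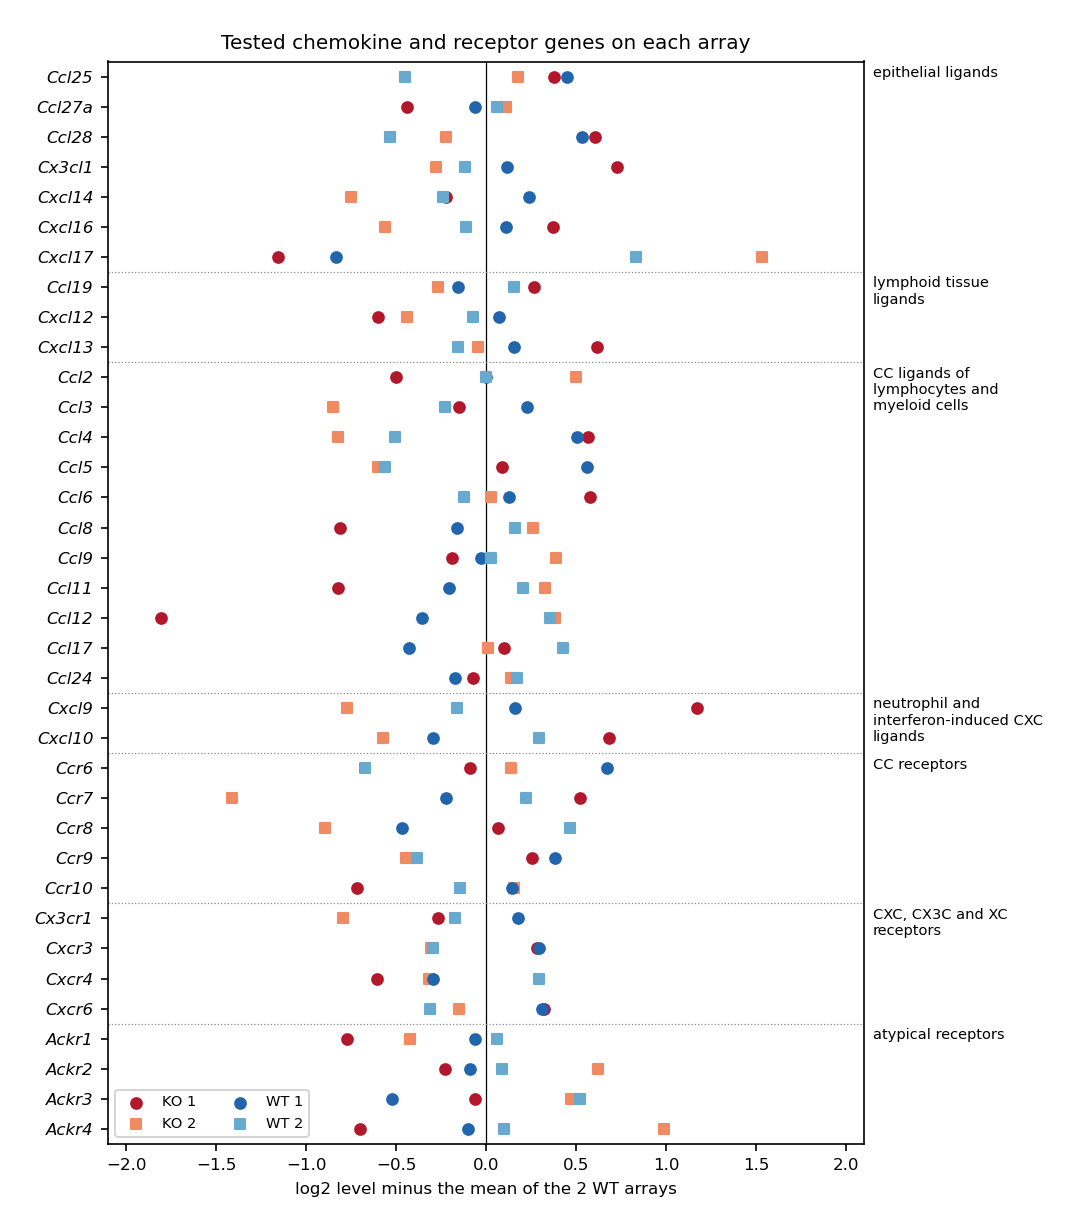
Each row is a tested gene, grouped by role, and each symbol is 1 array, as its log2 level minus the mean of the WT arrays (x axis); KO 1 and KO 2 are listed before WT 1 and WT 2. The KO symbols lie farther apart than the WT symbols for 25 of 36 genes. Over all genes tested, too, the median range was wider in KO (0.45) than in WT (0.30). Only for Cxcl12, Cx3cr1, Cxcr4 and Ackr1 do the genotypes not overlap.

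Lymphoid tissue ligands were tested for all 3 genes on the array, 0 passed, and the median difference was 0.00. Cxcl12, the stromal ligand that holds Cxcr4-bearing cells in place, had levels of -1.05 and -0.89 in KO, against -0.38 and -0.52 in WT. Both KO arrays were below both WT arrays, with a gap between genotypes wider than that within either. Signal was 1.43-fold lower in KO (difference -0.51, SE 0.28, 95% interval -1.20 to 0.17, limma's adjusted p = 1.00), and the difference within the slide was -0.52. Leaving out any 1 array gave -0.59 to -0.43, but the difference was -0.28 over the mean of its probes and -0.14 with normexp background correction. A second Cxcl12 probe, designed to another transcript of the gene, did not separate the genotypes. That probe had levels of -2.0 and -1.48 in KO, against -1.95 and -1.43 in WT, a difference of -0.05. Cxcl13, the ligand that gathers B cells into follicles, had levels of -3.74 and -4.40 in KO, against -4.20 and -4.51 in WT. KO 1 was highest and the rest overlapped (difference 0.29, SE 0.49, within the slide 0.78). Ccl19, which draws Ccr7-bearing T cells and dendritic cells, had levels of -3.12 and -3.65 in KO, against -3.54 and -3.23 in WT. Its difference was 0.00 (SE 0.42), and its 3 probes past the filter did not share a sign.

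CC ligands of lymphocytes and myeloid cells were tested for 11 of 16 genes, with 0 past the threshold, 5 positive differences and a median of -0.13. Ccl5, which cytotoxic T cells make, had levels of 4.05 in KO 1 and 3.36 in KO 2, against 4.52 in WT 1 and 3.40 in WT 2. Each genotype had a high and a low array. The difference was -0.25 (SE 0.46, 95% interval -1.37 to 0.87), and 0.65 within the slide. Ccl4, an attractant made by the same cells, split alike, at -1.51 and -2.90 in KO, against -1.57 and -2.58 in WT (difference -0.13, SE 0.59). Ccl3, a close relative of Ccl4, had a difference of -0.50 (SE 0.51), with 0.09 within the slide. Ccl6, a myeloid-cell ligand of mice, had levels of 2.54 and 1.99 in KO, against 2.09 and 1.84 in WT. KO 1 was highest, KO 2 lay between the WT arrays, and the difference of 0.30 (SE 0.31) was the largest positive one. Ccl9, a related mouse ligand, had a difference of 0.10 (SE 0.32).

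Ccl12, Ccl2, Ccl8 and Ccl11, monocyte and eosinophil attractants of this group, were lowest in KO 1 and highest in KO 2. Ccl12, a mouse ligand of Ccr2, had levels of -5.67 in KO 1 and -3.48 in KO 2, against -4.22 in WT 1 and -3.51 in WT 2. Its readings in KO 1 and WT 1 were not well above background, so the measured difference of -0.70 (SE 0.79) rests in part on dim signal, and it was 0.70 with normexp background correction. Ccl2, the main monocyte attractant, had levels of -4.12 and -3.12 in KO, against -3.62 in each WT array (difference 0.00, SE 0.49). Ccl8, a ligand of Ccr8 in mice, had levels of -3.90 and -2.83 in KO, against -3.25 and -2.93 in WT (difference -0.27, SE 0.49). Ccl11, the eosinophil attractant of the gut, had levels of -2.98 and -1.83 in KO, against -2.36 and -1.95 in WT (difference -0.25, SE 0.48). Ccl17, a ligand of Ccr4, and Ccl24, another eosinophil attractant, had differences of 0.06 (SE 0.45) and 0.04 (SE 0.46).

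Of the neutrophil and interferon-induced CXC ligands, 2 of 6 were tested and 0 passed. These were Cxcl9 and Cxcl10, which interferon-gamma induces and which draw Cxcr3-bearing T cells. Cxcl9 had levels of -1.85 in KO 1 and -3.79 in KO 2, against -2.86 in WT 1 and -3.18 in WT 2. Cxcl10 had levels of -1.88 in KO 1 and -3.14 in KO 2, against -2.86 in WT 1 and -2.27 in WT 2. Both were highest in KO 1 and lowest in KO 2, with the WT arrays between. Their differences were 0.20 (SE 0.66) and 0.06 (SE 0.52), and within the slide 1.33 and 0.39. A second Cxcl9 probe, well above background in KO 1 and WT 2 alone, overlapped between genotypes and gave 0.51. Since this pair shares an inducer and the same extreme arrays, the 250 bases before their RefSeq starts are shown (GRCm38.p6, minus strand, Cxcl9 at chr5:92328080-92328329 and Cxcl10 at chr5:92348890-92349139). Capitals mark matches on either strand to the core of the interferon-stimulated response element (GAAA, any 2 bases, GAAA), to a pattern like the NF-kB site (GGG, any 5 bases, CC) and to TTTATG.
Cxcl9: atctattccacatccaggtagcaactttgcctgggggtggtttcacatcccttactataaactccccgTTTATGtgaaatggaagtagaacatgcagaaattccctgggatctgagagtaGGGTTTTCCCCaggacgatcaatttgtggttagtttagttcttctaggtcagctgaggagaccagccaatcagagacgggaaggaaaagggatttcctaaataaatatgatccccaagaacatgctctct
Cxcl10: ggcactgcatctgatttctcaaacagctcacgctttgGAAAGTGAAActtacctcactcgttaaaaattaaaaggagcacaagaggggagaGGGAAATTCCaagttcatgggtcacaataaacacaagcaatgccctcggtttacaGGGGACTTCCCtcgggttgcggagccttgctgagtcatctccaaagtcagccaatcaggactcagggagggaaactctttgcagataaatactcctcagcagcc

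The Cxcl10 window held 1 match to the response element core, which 2.98% of all windows hold, and the Cxcl9 window 0. Matches to the NF-kB-like pattern numbered 3 for Cxcl10 and 2 for Cxcl9, with 2 of them overlapping in each window, and 45.8% of all windows hold at least 1. Of the 47 windows of chemokine and receptor genes, 6.38% held the response element core (Ccl19, Cxcl10 and Cxcl14). The NF-kB-like pattern was in 57.4% of these 47 windows, from 26 of 43 genes. TTCNNNGAA, the gamma-activated site, was in 8.51% of them, from 4 genes, beside 7.02% of all windows.

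CC receptors were tested for 5 of 11 genes, 0 passed, 1 difference was positive and the median was -0.28. Ccr9, the Ccl25 receptor of gut-homing T cells, had levels of -1.94 and -2.64 in KO, against -1.81 and -2.58 in WT. A high and a low array in each genotype left a difference of -0.09 (SE 0.44), with 0.65 within the slide. Ccr10, the Ccl28 receptor of IgA-secreting cells, had levels of -1.50 and -0.63 in KO, against -0.64 and -0.93 in WT. KO 1 was lowest and KO 2 level with WT 1 (difference -0.28, SE 0.38, within the slide -0.57). Ccr6, which marks cells that follow Ccl20, had levels of -2.51 and -2.28 in KO, between those of -1.75 and -3.09 in WT (difference 0.03, SE 0.51). Ccr7, which guides T cells and dendritic cells to lymph nodes, had levels of -4.06 in KO 1 and -5.99 in KO 2, against -4.80 in WT 1 and -4.36 in WT 2. The KO arrays were the highest and the lowest, and the difference of -0.45 (SE 0.75) changed to 0.30 within the slide. Ccr8, of some regulatory T cells, had a difference of -0.42 (SE 0.58).

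Receptors of the CXC and CX3C classes were tested for 4 of 8 genes counted with Xcr1, with 0 past the threshold and a median of -0.23. Cx3cr1, carried by mucosal macrophages, had levels of -0.07 and -0.60 in KO, against 0.37 and 0.02 in WT. Both KO arrays lay below both WT arrays, but KO 1 and WT 2 were 0.09 apart on their common slide (difference within the slide -0.09). Signal was 1.44-fold lower in KO (difference -0.53, SE 0.32, 95% interval -1.31 to 0.25, limma's adjusted p = 1.00). A second probe had levels of -0.27 and -0.81 in KO, against 0.28 and -0.08 in WT, again without overlap (difference -0.64). The third, dim probe overlapped, with a difference of -0.62. Without KO 1 the Cx3cr1 difference was -0.79, without KO 2 it was -0.27, and with normexp background correction it was -0.26.

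Cxcr4, the signalling receptor of Cxcl12, had levels of -4.44 and -4.15 in KO, against -4.13 and -3.54 in WT. Both KO arrays were the lower, KO 2 by a hair below WT 1, and the signal was well above background in KO 1 and WT 2 alone. Its difference was -0.46 (SE 0.47), and -0.90 within the slide, but 0.85 with normexp background correction. Cxcr6, the Cxcl16 receptor of mucosal T cells and innate lymphoid cells, had levels of -1.06 and -1.53 in KO, against -1.07 and -1.69 in WT. Cxcr3, the receptor of Cxcl9 and Cxcl10, had levels of -2.98 and -3.57 in KO, against -2.97 and -3.56 in WT. Both genes gave nearly the same high and low reading in each genotype, with differences of 0.08 (SE 0.37) and -0.01 (SE 0.45). Their 95% intervals were -0.81 to 0.98 and -1.09 to 1.07.

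All 4 atypical receptors were tested, 0 passed and the median difference was 0.17. Ackr1, which venules use to carry chemokines across their wall, had levels of -4.42 and -4.07 in KO, against -3.71 and -3.59 in WT. Both KO arrays were below both WT arrays, with KO 2 not well above background. Signal was 1.51-fold lower in KO (difference -0.59, SE 0.43, 95% interval -1.65 to 0.46, limma's adjusted p = 1.00), but the difference was 0.66 in the other direction with normexp background correction. It was -0.83 within the slide. Ackr1 was the 1 gene of the 36 that both lacked overlap and reached a 1.5-fold difference. The share of all genes that did both is not given here. Beside it, a blood endothelium list had 8 of 9 markers tested, with Tek not tested, and 3 of the 8 were lower in both KO arrays, as were 6.1% of all genes. The summed signal of that list was 4.07 and 4.53 in KO, against 4.27 and 4.45 in WT, on the log2 scale, and its part in the Ackr1 reading was not tested.

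Ackr3, which removes Cxcl12, had levels of -2.89 and -2.36 in KO, against -3.35 and -2.31 in WT (difference 0.21, SE 0.48). Ackr4, which removes Ccl19 and Ccl25, had levels of -3.43 in KO 1 and -1.74 in KO 2, against -2.83 in WT 1 and -2.63 in WT 2. The KO arrays were the lowest and the highest (difference 0.15, SE 0.59). Ackr2, which removes inflammatory CC ligands, had a difference of 0.20 (SE 0.46). Within the slide, Ackr2, Ackr3 and Ackr4 turned to -0.31, -0.58 and -0.80.

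**Figure D3:**
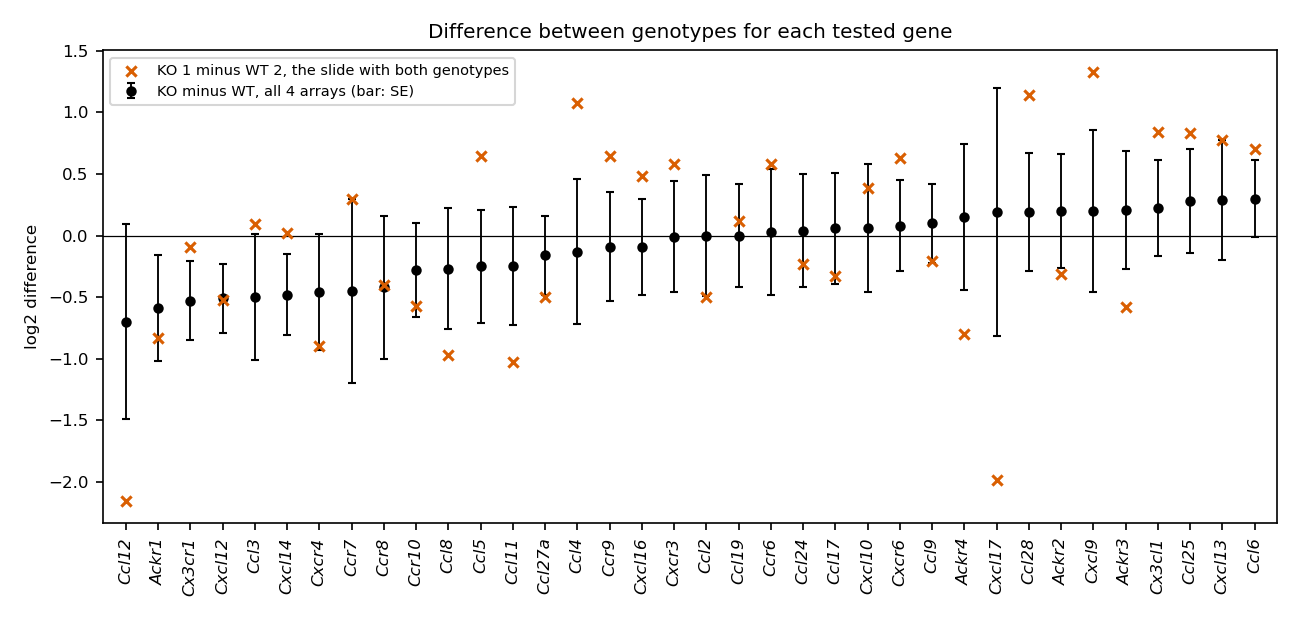
Black points are the log2 difference, KO minus WT, of each tested gene over all 4 arrays, with bars of 1 SE, ordered from the most negative to the most positive; orange crosses are KO 1 minus WT 2, the arrays of the shared slide. Black points run from -0.70 to 0.30, and crosses fall on the opposite side of 0 for 16 of 36 genes.

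Spread between arrays of a genotype was larger than the difference between genotypes for nearly all of these genes. The difference was smaller than the larger range within a genotype for 33 of 36, the exceptions being Cxcl12, Cx3cr1 and Ackr1. It was under 1 SE for 32 and under 2 SE for 36. Shares of all genes for these counts are not given here, so the counts do not set the 36 genes apart. The median range was 0.69 between the KO arrays and 0.42 between the WT arrays, beside 0.45 and 0.30 over all genes tested. KO 1 was the highest array for 11 of the 36 genes and the lowest for 13, beside 34.2% and 32.6% of all genes. KO 2 was highest for 10 and lowest for 14, beside 28.7% and 22.3%. WT 1 was highest for 9 and lowest for 3, beside 19.3% and 15.6%, and WT 2 highest for 6 and lowest for 6, beside 17.8% and 29.4%. Taken on the shared slide alone, the median difference of the 36 genes was -0.04, beside 0.08 over all genes.

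Several of these genes had an order of arrays like that of a cell type marker list, as the plot of marker lists shows. Which cells made or carried them was not tested. The genes set beside each list were chosen after their values were seen. T cell markers, of which 11 of 13 were tested and 0 passed, had a median of 0.26 in KO 1 and -0.52 in KO 2, against 0.40 in WT 1 and -0.40 in WT 2, relative to the WT mean. Cd8b1 and Itgae were not tested. The summed T cell signal was 5.85 and 4.67 in KO, against 5.56 and 4.90 in WT, on the log2 scale. Ccl4, Ccl5, Ccr9, Cxcr3 and Cxcr6 were likewise higher in KO 1 and WT 1 than in KO 2 and WT 2. The order was not particular to T cell genes, since 14 of the 36 had it, among them the epithelial ligands Ccl25, Ccl28, Cx3cl1, Cxcl14 and Cxcl16, beside 21.3% of all genes. The lymphocyte receptors Ccr6, Ccr7 and Ccr8 and the T cell markers Cd2, Cd3e and Cd4 did not have it. In bulk tissue, fewer cells of a type and less RNA per cell cannot be told apart.

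**Figure D4:**
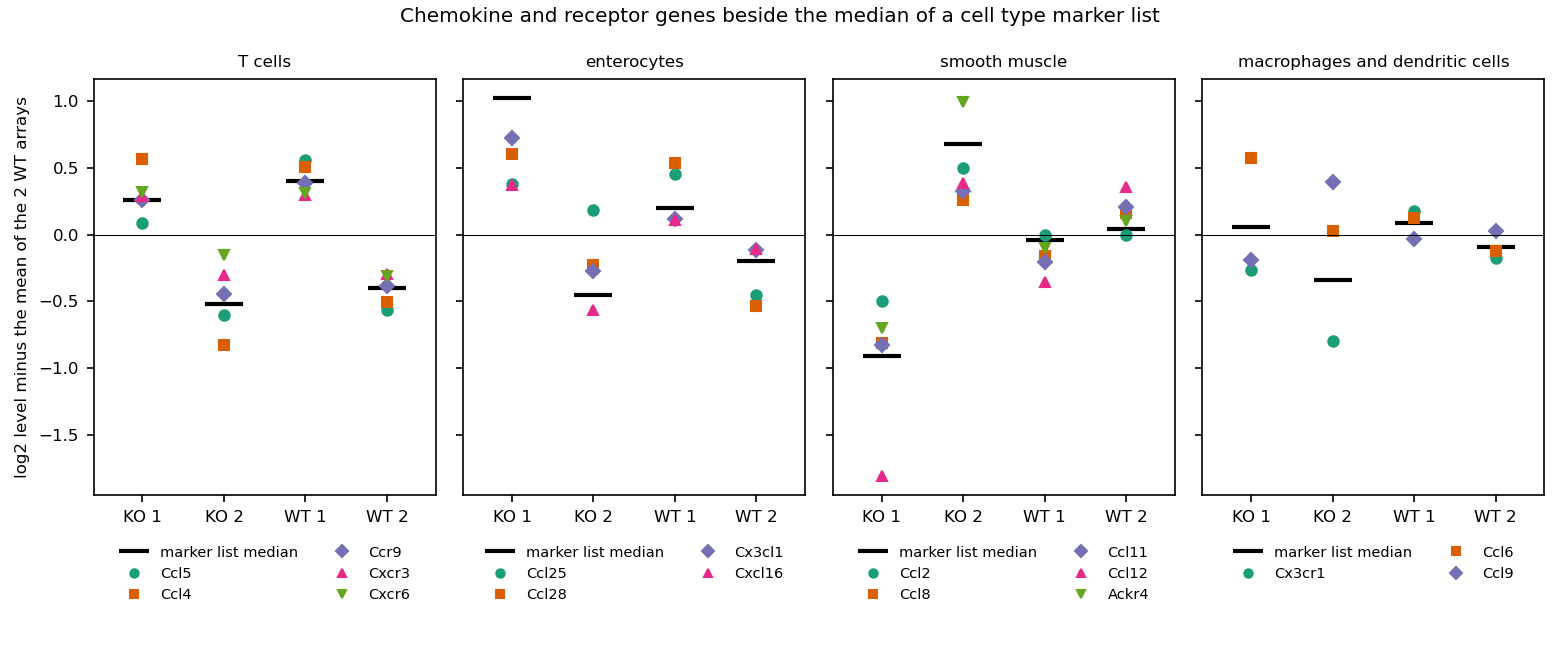
Log2 levels on each array minus the mean of the WT arrays (y axis), with KO 1 and KO 2 left of WT 1 and WT 2; black bars are the median of a marker list and symbols are chemokine and receptor genes. The 5 genes in the T cell panel stand higher in KO 1 and WT 1, and the smooth muscle list runs from -0.91 in KO 1 to 0.68 in KO 2.

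Enterocyte markers, of which 0 of 18 passed, had a median of 1.02 in KO 1 and -0.45 in KO 2, against 0.20 in WT 1 and -0.20 in WT 2. Their summed signal was 10.78 and 9.89 in KO, against 10.39 and 9.79 in WT, on the log2 scale. The median was lowest in KO 2 and the sum in WT 2, so the list did not give 1 order of arrays. Cx3cl1 and Cxcl16 followed the order of the median and Ccl28 that of the sum, and Ccl25 was lowest in WT 2. Smooth muscle markers ran the other way between the KO arrays. All 8 were tested, 0 passed, and their median was -0.91 in KO 1 and 0.68 in KO 2, against -0.04 in WT 1 and 0.04 in WT 2. The summed smooth muscle signal was 6.75 and 8.34 in KO, against 7.57 and 7.75 in WT. Of the 36 chemokine and receptor genes, 10 were also lowest in KO 1 and highest in KO 2, as were 16.6% of all genes. They were Ccl2, Ccl8, Ccl9, Ccl11, Ccl12, Ccl27a, Cxcl17, Ccr10, Ackr2 and Ackr4, of which the plot shows 5. Mesenteric adipocyte markers, with 6 of 8 tested and Lep and Plin1 not tested, had a median of -1.23 and 1.29 in KO, against -0.07 and 0.07 in WT. Their summed signal, in contrast, was 4.11 and 3.53 in KO, against 3.70 and 3.94 in WT.

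Macrophage and dendritic cell markers, with 15 of 16 tested and Zbtb46 not tested, had a median of 0.06 in KO 1 and -0.34 in KO 2, against 0.09 in WT 1 and -0.09 in WT 2. The summed signal was 4.64 and 3.99 in KO, against 4.51 and 4.12 in WT, and 4 of the 15 differences were positive. Cx3cr1 was lowest in KO 2 too, whereas Ccl6 and Ccl9 did not share that order. The part of any of these lists in the chemokine and receptor readings was not tested.

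Genes that act beside the chemokines or downstream of their receptors also gave no call. Of 94 listed genes (G proteins, kinases, arrestins, adhesion molecules, proteases and NF-kB or interferon regulators among them), 76 were tested and 0 passed in limma. Of the 76, 48 differences were positive, the median was 0.06, and the KO arrays lay apart above for 6 and apart below for 6, beside 8.66% and 6.1% of all genes. Pik3cg, the lipid kinase that chemokine receptors engage in leukocytes, had levels of -2.99 and -2.87 in KO, against -3.95 and -4.49 in WT. Its KO arrays were both above the WT arrays (difference 1.30, SE 0.43, limma's unadjusted p = 0.0218 and adjusted p = 1.00). Rac2, the leukocyte GTPase of cell movement, had levels of -0.12 and 0.81 in KO, against 1.13 and 1.38 in WT. Here both KO arrays were the lower (difference -0.91, SE 0.37, limma's adjusted p = 1.00). The 3 genes of smallest p in each direction were completed by Gnai3 and Rgs3 among the positive differences (0.33 and 0.34) and Mmp2 and Rgs16 among the negative ones (-0.56 and -0.71). Of 19 listed NF-kB and interferon regulators, Tnf, Il6, Il17a, Ifng and Lta were not tested. Among the 14 tested regulators, 13 differences were positive, beside 8093 of all 14393 genes, and 0 passed. Their median was 0.43 in KO 1 and -0.05 in KO 2, against 0.13 in WT 1 and -0.13 in WT 2.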

How the data were processed

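Cy3-labelled RNA of small intestine from 2 KO and 2 WT samples was read on 1-colour Agilent arrays, per the labels. The scanner output is that of Agilent Feature Extraction 11.5.1.1, per the submitters' processing notes. Per the file headers, the deposited intensity had its background subtracted and spatial trend removed, with no scaling across arrays. The authors' deposited value table holds log2 values of unstated scale. Over 39408 probes each column correlated at 0.9999 or more with log2 intensity minus the array's 75th percentile and the probe's median, so it keeps differences but no levels. Its column medians were -0.11, 0.12, 0.05 and -0.10 for KO 1, KO 2, WT 1 and WT 2.

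Control spots and flagged spots (91 to 129 per array) were left out, spots of a probe were averaged, and each array's 75th percentile was subtracted on the log2 scale. Accessions without versions matched 28019 of 39429 probes to 1 symbol in the RefSeq table (GRCm38.p6), and 11410 to none. Since the array was annotated on a different build, the table gave names only. Promoter windows are RefSeq's, matched by symbol for 43 of 57 genes (47 windows). The brightest probe per gene among those well above background on at least 2 arrays was tested in limma 3.58.1 (R 4.3.3) by lmFit and trended eBayes, with Benjamini-Hochberg adjustment over all genes and a threshold of 0.05. The fit was tested on simulated data.

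Some items are not reported here. The genes, lists and roles were chosen with earlier results of these data known. Levels per array are given for a set core of gut and lymphoid genes, genes without overlap and at least 1.5-fold apart, the 4 of smallest p in each direction, and the 4 with the widest range within a genotype. Other genes with levels per array were named after their values were seen. The alternatives were other scalings, normexp background correction (offset 50), the authors' table, other filters, probe and variance rules, a replicate block, the shared slide alone, and leaving out each array. Slide could not be fitted as a block: as a fixed term it uses up all residual degrees of freedom, and a single pair of arrays gives no correlation.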

Additional observations from a re-analysis of the deposited data

How the results depend on the processing

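0 of 36 chemokine and receptor genes passed limma's threshold in any setting with a test. Their smallest adjusted p was 0.165 without KO 2 (Ccl12), 0.876 with normexp and 1.00 elsewhere. An unadjusted p under 0.05 was found for 4 of them without KO 1, beside 3.04% of all genes, and for 2 without KO 2, beside 14.8%. The authors' table, the filters, the mean of probes and the variance settings kept each tested sign. Cxcr3 turned to 0.05 with median scaling and 0.06 with quantile normalization. Requiring all 4 arrays above background left 27 genes, 2 of them lower without overlap (5.31% of all genes), and 0 of all genes called lower. With normexp, 3 of all genes were called higher and 10 lower, 3 chemokine and receptor genes lay apart above and 2 below (11.6% and 11.2% of all genes), and their median was 0.66. Over 13471 probes dim on all arrays, that setting gave a median difference of 1.03, against 0.29 otherwise. Dim chemokine and receptor genes stood high in KO 2 alone, as for Ackr1 at -2.26 in KO 1 and -0.25 in KO 2, against -1.80 and -2.03 in WT. It reversed Ackr1 (0.66), Ccl3 (0.84), Ccl4 (0.73), Ccl6 (-0.15), Ccl8 (0.65), Ccl11 (0.35), Ccl12 (0.70), Ccl25 (-0.42), Ccr7 (1.03), Ccr8 (0.83), Ccr9 (0.64), Ccr10 (0.03), Cx3cl1 (-0.25), Cxcl16 (0.39), Cxcr3 (0.83) and Cxcr4 (0.85). Within the shared slide the reversed values were Ackr2 -0.31, Ackr3 -0.58, Ackr4 -0.80, Ccl2 -0.50, Ccl3 0.09, Ccl4 1.08, Ccl5 0.65, Ccl9 -0.21, Ccl17 -0.33, Ccl24 -0.23, Ccr7 0.30, Ccr9 0.65, Cxcl14 0.02, Cxcl16 0.48, Cxcl17 -1.99 and Cxcr3 0.58. The causes were not tested.

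Leaving out 1 array gave 0 to 132 calls higher and 0 to 296 lower over all genes, the highest of both without KO 2. Between 3 and 11 chemokine and receptor genes then lay apart above (20.9% to 37.8% of all genes) and 8 to 17 below (20.7% to 34.4%), which fewer arrays make more frequent by construction, and their median ran from -0.19 to -0.06. Of the 36 genes, 29 changed sign in at least 1 of these fits, with these ranges: Ackr2 -0.23 to 0.62, Ackr3 -0.32 to 0.73, Ackr4 -0.70 to 1.00, Ccl11 -0.82 to 0.32, Ccl12 -1.80 to 0.39, Ccl17 -0.37 to 0.49, Ccl19 -0.26 to 0.27, Ccl2 -0.49 to 0.50, Ccl24 -0.13 to 0.21, Ccl25 -0.17 to 0.73, Ccl27a -0.44 to 0.11, Ccl28 -0.34 to 0.72, Ccl4 -0.82 to 0.57, Ccl5 -0.81 to 0.31, Ccl8 -0.81 to 0.27, Ccl9 -0.19 to 0.39, Ccr10 -0.72 to 0.16, Ccr6 -0.64 to 0.69, Ccr7 -1.41 to 0.52, Ccr8 -0.90 to 0.06, Ccr9 -0.48 to 0.30, Cx3cl1 -0.28 to 0.72, Cxcl10 -0.58 to 0.69, Cxcl13 -0.04 to 0.62, Cxcl16 -0.56 to 0.37, Cxcl17 -1.15 to 1.54, Cxcl9 -0.77 to 1.17, Cxcr3 -0.31 to 0.29 and Cxcr6 -0.23 to 0.39.

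The replicate numbers share only a number, since no label ties them. With the replicate block, 6 of all genes were higher and 26 lower, and 0 of the 36 passed. Both arrays numbered 1 lay above both numbered 2 for 14 of the 36 genes (38.9%, beside 21.3% of all genes) and below for 11 (30.6%, beside 20.0%). With 2 arrays per genotype, intervals were wide, and dim genes were read near background.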
